A study of Drosophila melanogaster with 12 samples.

Results

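The genes described here are 10 nucleolar and ribosome biogenesis genes, named by gene number among the 17561 genes of a count table from Drosophila melanogaster embryos: Nopp140 (CG7421), Fib (CG9888), Nop56 (CG13849), nop5 (CG10206), Nop60B (CG3333), Ns1 (CG3983), mod (CG2050), pit (CG6375), bys (CG1430) and Myc (CG10798). All 10 were found, and all 10 passed the filter on low counts that left 14031 genes. They were chosen by gene identity after the counts of these same libraries had been compared between the 4 groups, and the values that led to the choice are those same gene levels, so the calls and p-values given for them describe them and are not independent evidence of a direction. The study sequenced poly(A) RNA of whole embryos aged 20 to 24 h, in 4 groups of 3 libraries each. The groups were elav null embryos, elav null fne null embryos that are labelled null for both genes, embryos with the elav WDd allele, and WT controls. elav and fne encode related neuronal RNA-binding proteins. The labels give the WT controls as elav[e5] over the FM7 balancer chromosome and the table's header gives them as elav null over FM7, so these controls carry the balancer and are not a strain free of elav mutations. Homozygous mutants were recognised by the missing fluorescence of a Krüppel-GFP FM7 balancer, and the labels used here do not describe the WDd change. The labels do not say that replicates are separate collections of embryos, and p-values therefore measure only the spread between these libraries, which may be technical.

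The nucleolus is where RNA polymerase I transcribes ribosomal RNA and where that RNA is cut, modified and packed into the subunits of the ribosome. Small nucleolar RNAs guide the modification: box C/D particles, built on fibrillarin (Fib), Nop56 and nop5, methylate ribose, and box H/ACA particles, built on the pseudouridine synthase Nop60B, convert uridine to pseudouridine. Other members work in assembly and growth control, and Myc is the transcription factor that raises the output of the whole pathway in growing fly cells.

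Total counts per library ran from 22491041 to 97043662, so that 1 CPM (a share of the library's counts on the CPM scale, adjusted with TMM factors) stood for 21.5 to 91.6 counts. Levels of elav were 3.98 to 6.27 CPM in elav null and 4.99 to 6.12 CPM in elav null fne null embryos, against 146 to 191 CPM in elav WDd and 68.6 to 160.5 CPM in WT embryos. The library labelled elav null replicate 3 went against its label in fne, with 36.2 CPM against 173 and 243 CPM in the other elav null libraries and 19.6 to 30.6 CPM in elav null fne null embryos. It also lay among the elav null fne null libraries in summed neuroblast, muscle and neuron markers, given at the end. At an equal depth of 2e+07 counts that library, elav null fne null replicate 2 and elav null replicate 1 detected 10526, 11548 and 11871 genes, while between 13258 and 15583 were detected in each of the remaining 9. Mitochondrial ribosomal RNA took 9.54% and 10.1% of counts in elav null replicates 2 and 3 and 6.2% to 8.55% in elav null fne null embryos, against 0.65% to 3.61% in the other libraries. These are whole-embryo RNAs, in which fewer cells of a type and less RNA per cell cannot be told apart.

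Transcripts of 9 of the 10 genes were lower in both null groups than in WT embryos, and Myc was the exception. The median log2 fold change of the 10 was -1.67 in elav null over WT and -1.61 in elav null fne null over WT, where all tested genes had medians of -0.11 and -0.03. By edgeR's quasi-likelihood test at an adjusted p under 0.05, 9 of 10 were lower and 0 higher in elav null embryos, where 11.7% of all tested genes were lower and 5.99% higher. Of the 10, 9 were again lower and 0 higher in elav null fne null embryos, where 14.7% of all tested genes were lower and 6.68% higher. In elav WDd over WT 0 of 10 were called, where 0.135% of tested genes were lower and 0.0641% higher, and the median of the 10 was -0.14. In elav null and in elav null fne null embryos, all 3 libraries lay below all 3 WT libraries for 9 of the 10, which held for 21.0% and 25.4% of all tested genes.

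**Figure D1:**
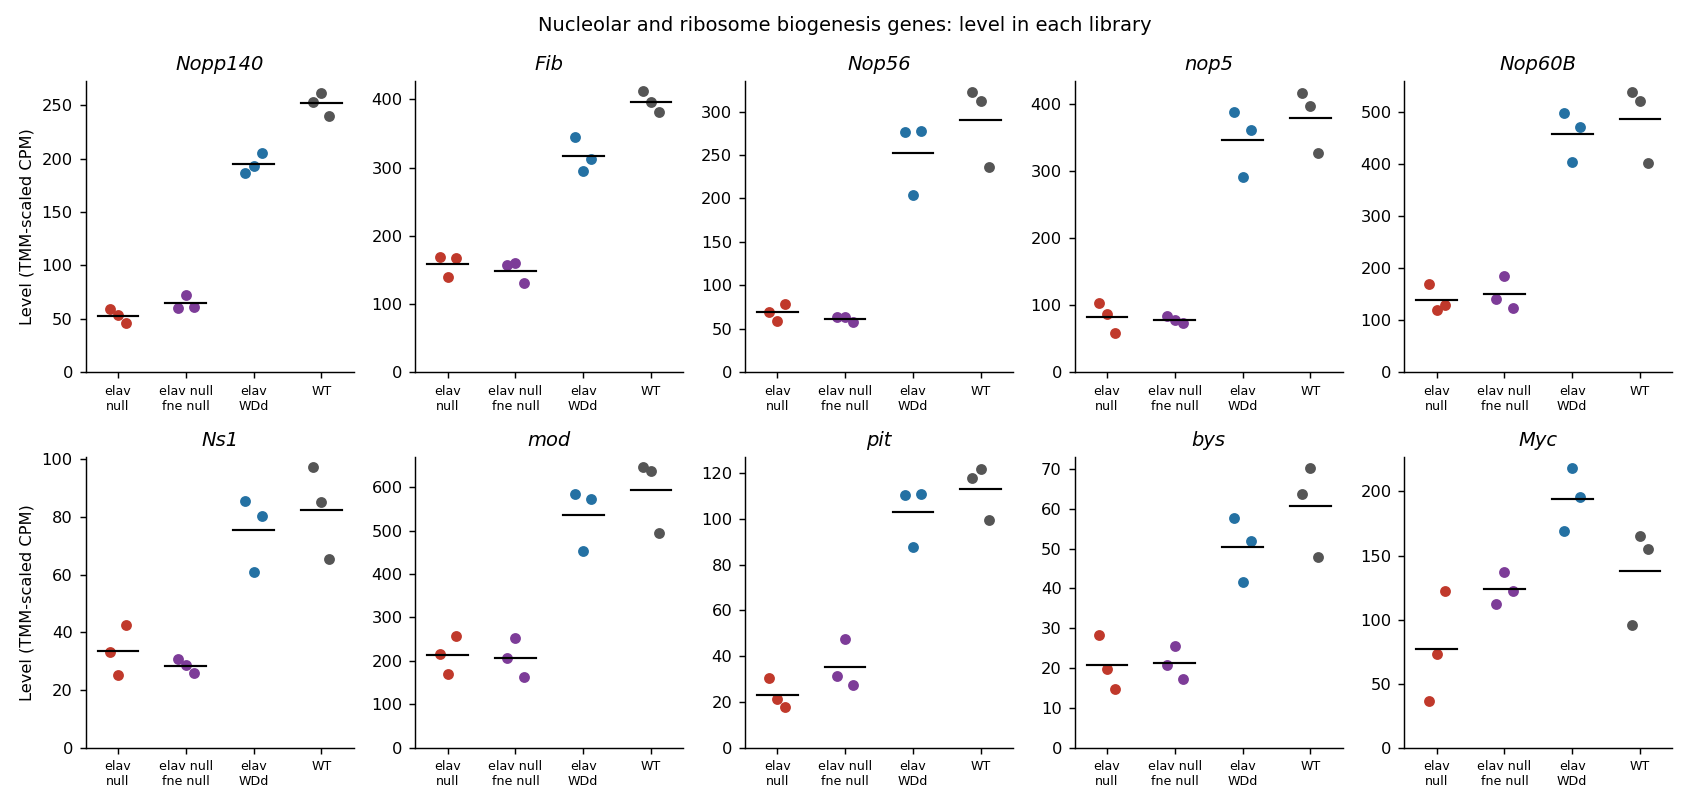
Level of each of the 10 genes in every library, in TMM-scaled CPM on axes that start at 0, for elav null, elav null fne null, elav WDd and WT embryos. Each point is 1 library and each bar is the mean of 3; for every gene but Myc the points of both null groups lie below all points of elav WDd and WT embryos.

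Among the box C/D proteins, Fib, the methyltransferase of these particles, lies on the minus strand of chromosome 2R at 23072909 to 23074725 (BDGP6, the assembly also called dm6). It had 169, 139.8 and 167 CPM in elav null, 157, 159.6 and 131 CPM in elav null fne null, 345, 295 and 313 CPM in elav WDd, and 413, 397 and 381 CPM in WT embryos. The null groups overlapped each other and lay below every elav WDd library, and the elav WDd libraries lay below every WT library. Its log2 fold change was -1.32 ± 0.15 (SE) in elav null over WT and -1.41 ± 0.15 in elav null fne null over WT.

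Nop56, a core scaffold of the particle that contacts the guide RNA, lies on chromosome 3R at 22419095 to 22421068, minus strand. Its levels were 69.6, 58.8 and 78.9 CPM in elav null, 63.6, 62.9 and 58.1 CPM in elav null fne null, 276, 204 and 278 CPM in elav WDd, and 322, 312 and 236 CPM in WT embryos. The null libraries sat close together and far below the rest, while elav WDd and WT libraries overlapped. The log2 fold changes over WT were -2.07 ± 0.19 for elav null and -2.24 ± 0.19 for elav null fne null, a fall to 0.238 and 0.212 of the WT level.

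nop5 encodes the fly counterpart of Nop58, the partner of Nop56 in the same particle, and lies on chromosome 2L at 6916753 to 6918743, minus strand. It was measured at 103, 87.4 and 58.0 CPM in elav null, 84.1, 77.8 and 73.6 CPM in elav null fne null, 388, 291 and 362 CPM in elav WDd, and 417, 397 and 327 CPM in WT embryos. The lowest value belonged to the library labelled elav null replicate 3. Its log2 fold changes over WT, -2.20 ± 0.21 for elav null and -2.28 ± 0.21 for elav null fne null, were close to those of Nop56.

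Among the members tied to box H/ACA particles, Nop60B is the fly dyskerin, the enzyme that makes pseudouridine, at 24174877 to 24186343 on the plus strand of chromosome 2R. It had 169, 120.4 and 129 CPM in elav null, 141, 185 and 123 CPM in elav null fne null, 499.7, 405 and 472 CPM in elav WDd, and 539.6, 523 and 402 CPM in WT embryos. Both null groups overlapped each other and lay below all other libraries, and elav WDd overlapped WT. It fell by 1.81 ± 0.21 on the log2 scale in elav null over WT and by 1.70 ± 0.21 in elav null fne null over WT.

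Nopp140 is a nucleolar phosphoprotein that chaperones both kinds of snoRNA particle and lies on the plus strand of chromosome 3L at 21832774 to 21836685. It had 59.0, 53.5 and 46.0 CPM in elav null, 59.7, 72.5 and 60.6 CPM in elav null fne null, 187, 193 and 205 CPM in elav WDd, and 253, 262 and 239.6 CPM in WT embryos. All 4 groups were apart for this gene in CPM, in that order from low to high, with the closest gap between the null groups. Its log2 fold changes of -2.25 ± 0.15 and -1.97 ± 0.15 over WT had adjusted p of 1.64e-06 and 2.98e-06 by edgeR, the smallest of the 10 genes in both comparisons.

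Of the nucleolar growth and assembly factors, Ns1 encodes a nucleostemin-family GTPase needed for release of the large subunit, on chromosome 3R at 17070523 to 17072675, minus strand. Ns1 stood at 33.1, 25.1 and 42.5 CPM in elav null, 30.7, 28.6 and 25.8 CPM in elav null fne null, 85.6, 60.9 and 80.2 CPM in elav WDd, and 97.3, 85.2 and 65.3 CPM in WT embryos. The fall was among the smaller ones, with log2 fold changes of -1.30 ± 0.22 in elav null and -1.54 ± 0.22 in elav null fne null over WT.

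mod (modulo), a nucleolar protein that binds DNA and RNA and is a described Myc target in flies, lies on the plus strand of chromosome 3R at 32052060 to 32054974. It had 216, 169 and 257 CPM in elav null, 207, 252 and 162 CPM in elav null fne null, 584, 453 and 573 CPM in elav WDd, and 646, 638 and 495 CPM in WT embryos. The null libraries spread more widely than for Nop56 but stayed below 453 CPM, the lowest elav WDd value. Its log2 fold changes over WT were -1.47 ± 0.22 in elav null and -1.52 ± 0.22 in elav null fne null.

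pit (pitchoune) is a DEAD-box RNA helicase of the nucleolus and another described fly Myc target, on chromosome 3R at 22034298 to 22038925, plus strand. Its levels were 30.4, 21.2 and 17.8 CPM in elav null, 31.2, 47.5 and 27.6 CPM in elav null fne null, 110.4, 87.7 and 111 CPM in elav WDd, and 118, 122 and 99.5 CPM in WT embryos. The elav null values were mostly below those of elav null fne null embryos, with an overlap at replicate 1. The log2 fold change was -2.29 ± 0.24 in elav null over WT, the lowest of the 10, and -1.67 ± 0.24 in elav null fne null over WT.

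bys encodes bystin, a factor of small-subunit maturation, on the X chromosome at 7901880 to 7903643, plus strand. It had 28.2, 19.8 and 14.8 CPM in elav null, 20.9, 25.6 and 17.3 CPM in elav null fne null, 57.8, 41.7 and 52.0 CPM in elav WDd, and 63.6, 70.3 and 48.0 CPM in WT embryos. The lowest value, in the library labelled elav null replicate 3, rested on 319 counts, the fewest behind any value of the 10 genes. The log2 fold changes over WT were -1.53 ± 0.25 in elav null and -1.51 ± 0.25 in elav null fne null.

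Myc, on the X chromosome at 3373159 to 3391697, plus strand, did not follow the other 9. It had 36.1, 73.3 and 122 CPM in elav null, 112, 137 and 122 CPM in elav null fne null, 169, 218 and 196 CPM in elav WDd, and 95.4, 165 and 155 CPM in WT embryos. Both null groups overlapped WT, and all elav WDd libraries were above all WT libraries in CPM without passing the test. Exonic length is fixed for a gene, so whether its libraries overlap depends on how the libraries were scaled. In TPM, a level per exonic length scaled without TMM factors, Myc overlapped between these groups. It had 33.8 to 53.1 TPM in elav WDd and 17.2 to 37.6 TPM in WT embryos. Its log2 fold change was -0.85 ± 0.33 in elav null over WT (edgeR adjusted p = 0.105), with a 95% interval from -1.57 to -0.13. In elav null fne null over WT it was -0.16 ± 0.33 (edgeR adjusted p = 0.815), and in elav WDd over WT 0.49 ± 0.33 (edgeR adjusted p = 1.0). The highest elav null value belonged to the library labelled elav null replicate 3: without it the elav null change was -1.32 (edgeR adjusted p = 0.00709), and the elav null fne null over elav null change of Myc passed as well, at 1.18 (edgeR adjusted p = 0.0275). With all libraries, Myc in elav null fne null over elav null was at 0.69 ± 0.33 (edgeR adjusted p = 0.409). It was called there in 1 of 18 alternative settings. Across the 18 alternative settings the elav null over WT change of Myc ran from -1.32 to -0.50, with adjusted p from 0.00709 to 0.282. An annotated long noncoding RNA on the same strand, lncRNA:CR44999, shares exonic bases with Myc, so its reads and those of Myc may be mixed in this value.

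**Figure D2:**
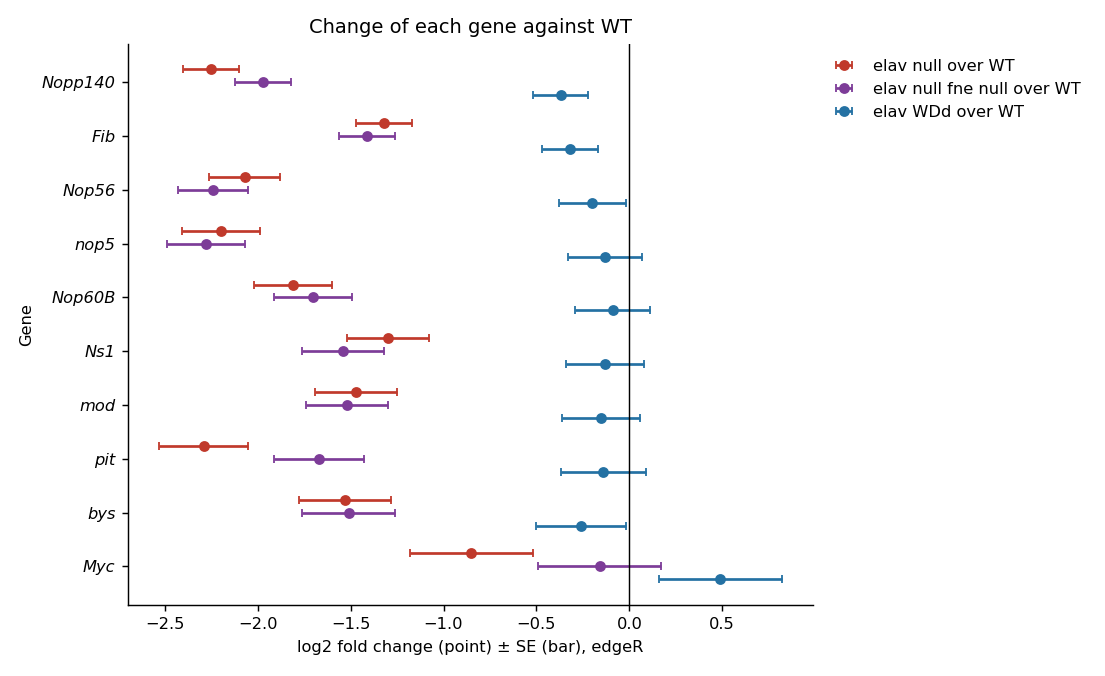
Log2 fold change against WT from edgeR for each of the 10 genes, with points for elav null, for elav null fne null, and for elav WDd, and bars of 1 standard error on each side. The 9 genes other than Myc lie between -2.29 and -1.30 in the null groups and between -0.37 and -0.09 in elav WDd embryos.

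In elav WDd embryos the question was whether an allele that leaves elav RNA in place moved these genes. DESeq2 also called 0 of 10, and at an unadjusted p under 0.05 edgeR found 2 lower, Nopp140 and Fib. The share of all tested genes at that unadjusted threshold is not given here, so this count is a description only. The Nopp140 change was -0.37 ± 0.15 with a 95% interval from -0.68 to -0.05 (edgeR adjusted p = 0.849). The Fib change was -0.32 ± 0.15 (edgeR adjusted p = 1.0). These were also the only members of which all elav WDd libraries lay below all WT libraries in CPM. The share of all tested genes apart in that way is not given here. In TPM, which was scaled without TMM factors, Fib stayed apart. Nopp140 overlapped on that scale, at 106 to 133 TPM in elav WDd and 129.7 to 165 TPM in WT embryos. For the other 7 besides Myc the change ran from -0.26 for bys to -0.09 for Nop60B; the interval for Nop60B, -0.52 to 0.34, excludes the -1.81 and -1.70 of the null groups. Set against elav WDd in place of WT, elav null embryos had all 10 genes lower, Myc included, where 11.0% of tested genes were lower and 5.83% higher. The median there was -1.53 against -0.07 over all tested genes. Myc was at -1.34 ± 0.34 in that comparison (edgeR adjusted p = 0.0148), a call that was lost when edgeR was fitted to those 6 libraries alone, at -1.31 with adjusted p = 0.0686. In elav null fne null over elav WDd 9 were lower and Myc was not called, where 14.3% of tested genes were lower and 6.6% higher; the median of the 10 was -1.47, against -0.01 over all tested genes. The null groups' comparisons with WT share the WT libraries, and those with elav WDd share the elav WDd libraries.

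Added loss of fne was read from elav null fne null over elav null embryos. edgeR called 0 of the 10 genes, where 0.185% of tested genes were lower and 0.0428% higher, and DESeq2 called 0 as well. The counts over all genes depended on 1 library and on the tool: without the library labelled elav null replicate 3 edgeR called 321 genes higher and 726 lower, in place of 6 and 26, and DESeq2 called 252 and 312 with all libraries. At an unadjusted p under 0.05 edgeR found 1 gene, pit, higher by 0.61 ± 0.23 with a 95% interval from 0.11 to 1.12 (edgeR adjusted p = 0.284). Nopp140 differed by 0.28 ± 0.15, with all elav null fne null libraries above all elav null libraries: the lowest elav null fne null value was 59.7 CPM and the highest elav null value 59.0 CPM. Shares of all tested genes at the unadjusted threshold, or apart in this way, are not given for this comparison. The remaining 7 besides Myc lay between -0.24 for Ns1 and 0.10 for Nop60B; for Fib, the interval was -0.41 to 0.24.

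Set against exonic length (TPM, a level per base of exon), the 10 genes spanned a wide range of levels in WT embryos. Fib averaged 588 ± 63.6 TPM (SD, n = 3) and mod 502 ± 47.7 TPM, and their WT libraries overlapped. nop5 followed at 406 ± 28.3 TPM, apart from mod above and from Nop56 below, and Nop56 at 321 ± 30.9 TPM overlapped Nop60B at 277 ± 25.2 TPM. Nopp140 stood alone at 152 ± 19.6 TPM. Ns1, bys and pit averaged 83.8, 77.4 and 74.4 TPM and overlapped each other, and Myc was lowest at 30.2 ± 11.3 TPM. Because the falls were unequal, the order changed in elav null embryos: Fib and mod still led at 243 and 189 TPM, Nopp140 averaged 33.0 ± 3.55 TPM beside 35.7 ± 8.94 TPM for Ns1, and pit was last at 15.7 TPM beside 17.2 ± 9.72 TPM for Myc.

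**Figure D3:**
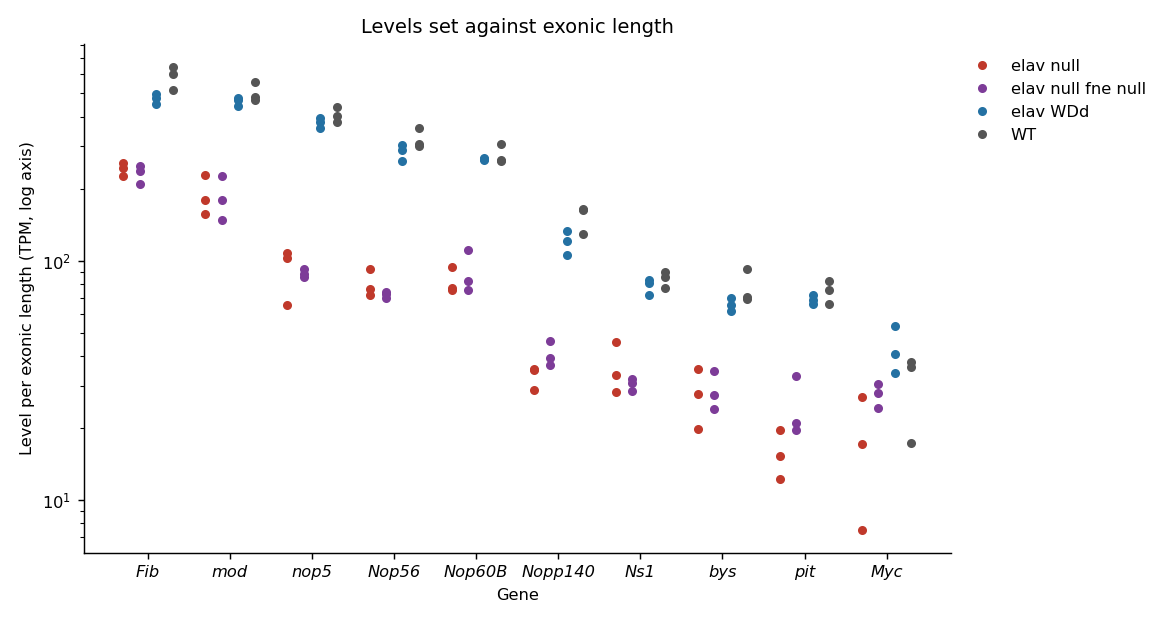
Level per exonic length, in TPM on a log axis, of each gene in each library, with genes ordered by their WT mean from Fib (588 TPM) to Myc (30.2 TPM). In elav null embryos Nopp140 (33.0 TPM) lies at the level of Ns1 (35.7 TPM), and in elav null fne null embryos Nopp140 (40.6 TPM) lies above Ns1 (30.5 TPM).

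Together the 10 genes took 0.0788% to 0.104% of all counts in the null libraries, against 0.228% to 0.295% in elav WDd and WT libraries. How the genes varied inside the groups depended on the scale. With group means removed, the 36 pairs among the 9 genes other than Myc had a median Pearson r of 0.598 over the 12 libraries in log2 CPM and of 0.336 in log2 TPM, with single pairs from -0.661 to 0.918 in TPM. Myc with the 9 others had a median r of -0.475 in CPM and 0.233 in TPM, so no direction is read from it. The libraries share depth and composition differences, and r is given as a description.

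Some features of position were not used in naming the genes. Annotated snoRNA or small Cajal body RNA genes lie inside 4 of the 10: 7 in Nop60B and 1 each in Fib, nop5 and pit. Among 13986 protein-coding genes of the annotation, 84 (0.601%) hold such a gene, and 3 of the 78 other genes of the wider list described next do. Those hosted RNAs themselves were at most 1.24 CPM in any library, in libraries selected for poly(A). Exonic bases are shared with another annotated feature for 3 of the 10, Nopp140, Nop60B and Myc, and for 36 of the 78 genes of the wider list (46.2%). Whether the counting used strand, and how it treated reads that map to several places, is not stated in the sources used here. Reads of such features therefore cannot be told apart.

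A wider list of 78 genes was drawn up from the known roles of the pathway, also with earlier results known: 68 biogenesis genes and 10 genes of the Myc network. Of the 68, edgeR called 57 lower and 1 higher in elav null over WT, with a median of -1.71, beside the 11.7% of all tested genes that were lower. In elav null fne null over WT it called 60 lower and 1 higher, with a median of -1.66, beside 14.7%. In elav WDd over WT it called 1 lower and 0 higher, with a median of -0.18, beside 0.135% of all tested genes lower and 0.0641% higher. For the 68, DESeq2 gave the same counts, and at an unadjusted p under 0.05 edgeR found 1 lower and 0 higher. In elav null fne null over elav null edgeR called 0 of 68, beside 0.185% of all tested genes lower and 0.0428% higher. At an unadjusted p under 0.05 it found 3 of the 68 lower and 1 higher, and DESeq2 called 1 higher. Shares of all tested genes at the unadjusted threshold are not given here, so the unadjusted counts are a description only.

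By role, RNA polymerase I and its factors fell for 5 of 7 genes in each null group over WT, with medians of -1.69 in elav null and -1.78 in elav null fne null. Polr1C, a subunit shared with RNA polymerase III, had 4.29, 5.33 and 1.90 CPM in elav null embryos against 29.8, 28.3 and 18.9 CPM in WT embryos, a log2 fold change of -2.73 ± 0.35. Polr1H, a small subunit, was at -2.68 ± 0.43 in elav null over WT. Tif-IA, the growth-regulated initiation factor of this polymerase, had 37.3, 40.7 and 46.2 CPM in elav null, 34.9, 39.8 and 38.2 CPM in elav null fne null, 109, 89.3 and 108 CPM in elav WDd, and 103, 98.5 and 81.5 CPM in WT embryos. Its change was -1.19 ± 0.16 in elav null and -1.33 ± 0.16 in elav null fne null over WT, and elav WDd overlapped WT.

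Of the 4 other snoRNA-particle proteins edgeR called 4 lower in elav null and 3 in elav null fne null embryos over WT, with calls for Nop10 and Gar1 that depended on single libraries. hoip, the box C/D protein that first binds the guide RNA, had 18.8, 21.2 and 25.1 CPM in elav null, 14.2, 8.11 and 17.0 CPM in elav null fne null, 128, 76.9 and 131 CPM in elav WDd, and 184, 162 and 88.1 CPM in WT embryos. Its log2 fold changes over WT, -2.74 ± 0.33 in elav null and -3.46 ± 0.34 in elav null fne null, were below the lowest value of any of the 10 genes. NHP2, its counterpart in box H/ACA particles, was at -2.48 ± 0.31 and -2.76 ± 0.31. Nop10, another box H/ACA protein, had 2.31, 4.36 and 0 CPM in elav null and 4.40, 6.76 and 6.87 CPM in elav null fne null, against 28.6, 12.2 and 12.7 CPM in WT embryos. The 0 is in the library labelled elav null replicate 3, where 3 counts would be 0.14 CPM. Nop10 changed by -2.97 ± 0.84 in elav null over WT, or -2.42 without that library, a call lost with those 6 libraries alone (-2.95, edgeR adjusted p = 0.142) and without WT replicate 1 (-2.44, edgeR adjusted p = 0.0945) or elav null replicate 1 (-2.96, edgeR adjusted p = 0.0663), and by -1.57 ± 0.79 in elav null fne null over WT (edgeR adjusted p = 0.196). Gar1, the fourth box H/ACA protein beside Nop60B, NHP2 and Nop10, changed least, by -0.80 ± 0.18 and -0.59 ± 0.18. Its call in elav null fne null embryos was lost without WT replicate 1 or 3 or elav null fne null replicate 1 or 3, at -0.60 to -0.45 with edgeR adjusted p up to 0.129, and with RLE factors (-0.46).

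Small-subunit factors were lower for 22 of 25 genes in elav null and 24 of 25 in elav null fne null over WT, with medians of -1.71 and -1.64. Large-subunit factors were lower for 23 of 27 in each, with medians of -1.76 and -1.74. CG8611, annotated by similarity as a DEAD-box helicase, was the 1 biogenesis gene called in elav WDd embryos: 16.5, 14.7 and 12.4 CPM in elav null, 18.5, 13.1 and 14.8 CPM in elav null fne null, 49.0, 42.5 and 46.0 CPM in elav WDd, and 93.7, 89.7 and 93.8 CPM in WT embryos. Its elav WDd libraries lay between the null groups and WT, at a log2 fold change of -1.01 ± 0.17 over WT (edgeR adjusted p = 0.0284), which was lost without any of the WT or elav WDd libraries, elav null replicate 2 or elav null fne null replicate 3, at -1.08 to -0.93 with edgeR adjusted p up to 0.293. CG1542, of the EBP2 family of large-subunit factors, was at -2.48 ± 0.33 in elav null fne null over WT. Non1, a GTPase of large-subunit assembly, was higher, with 1889, 1649 and 2196 CPM in elav null and 2106, 2595 and 1740.0 CPM in elav null fne null, against 1202, 1252 and 1353 CPM in WT embryos. Non1 changed by 0.59 ± 0.19 over WT in elav null (edgeR, adjusted p = 0.0496) and by 0.76 ± 0.19 over WT in elav null fne null (edgeR, adjusted p = 0.0119); the call in elav null was kept in 7 of 18 alternative settings, and that in elav null fne null was lost without its replicate 2 (0.63, edgeR adjusted p = 0.0565).

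The genes not called in elav null over WT were RIOK2, CG1789, l(1)G0004, Ns2, Sbds, CG4364, Polr1D, TAF1B, Nlp and Noa36. Those not called in elav null fne null over WT were RIOK2, Ns2, Sbds, CG4364, Polr1D, TAF1B and Nop10. Polr1D missed the threshold at -2.22 and -2.31, so a missed call is not a small change in every case. The 5 other nucleolar proteins gave 3 lower in elav null and 5 lower in elav null fne null over WT.

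The Myc network did not share the median of the biogenesis genes. Of its 10 genes edgeR called 2 lower and 1 higher in elav null, 1 lower and 1 higher in elav null fne null, and 0 in elav WDd over WT. The medians were -0.21, -0.23 and 0.15. Of all tested genes, 11.7% were lower and 5.99% higher in elav null, and 14.7% and 6.68% in elav null fne null over WT. In elav WDd over WT these shares were 0.135% and 0.0641%. The network's counts lay near these shares. In elav WDd, DESeq2 also called 0, and edgeR found 0 lower and 1 higher at an unadjusted p under 0.05. No share of all tested genes is given at that unadjusted threshold. Max, the dimer partner of Myc, had 49.6, 41.7 and 54.7 CPM in elav null, 43.5, 48.5 and 40.6 CPM in elav null fne null, 66.9, 54.8 and 68.3 CPM in elav WDd, and 63.3, 50.7 and 41.2 CPM in WT embryos, with overlap of both null groups and WT. Mnt, the repressor that competes for Max, was at -0.34 ± 0.28 in elav null and 0.19 ± 0.28 in elav null fne null over WT, and ago, the F-box protein that marks Myc for degradation, at -0.35 ± 0.19 and -0.20 ± 0.19; edgeR called neither. bigmax, the partner of the sugar sensor Mondo, was higher at 0.82 ± 0.22 and 1.01 ± 0.22 over WT, and Mondo itself was lower at -0.67 in elav null and -0.58 in elav null fne null. The bigmax call in elav null was lost without the library labelled elav null replicate 3 (0.67, edgeR adjusted p = 0.0567) or WT replicate 2 or 3 (0.68 each), and held in 13 of 18 settings.

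**Figure D4:**
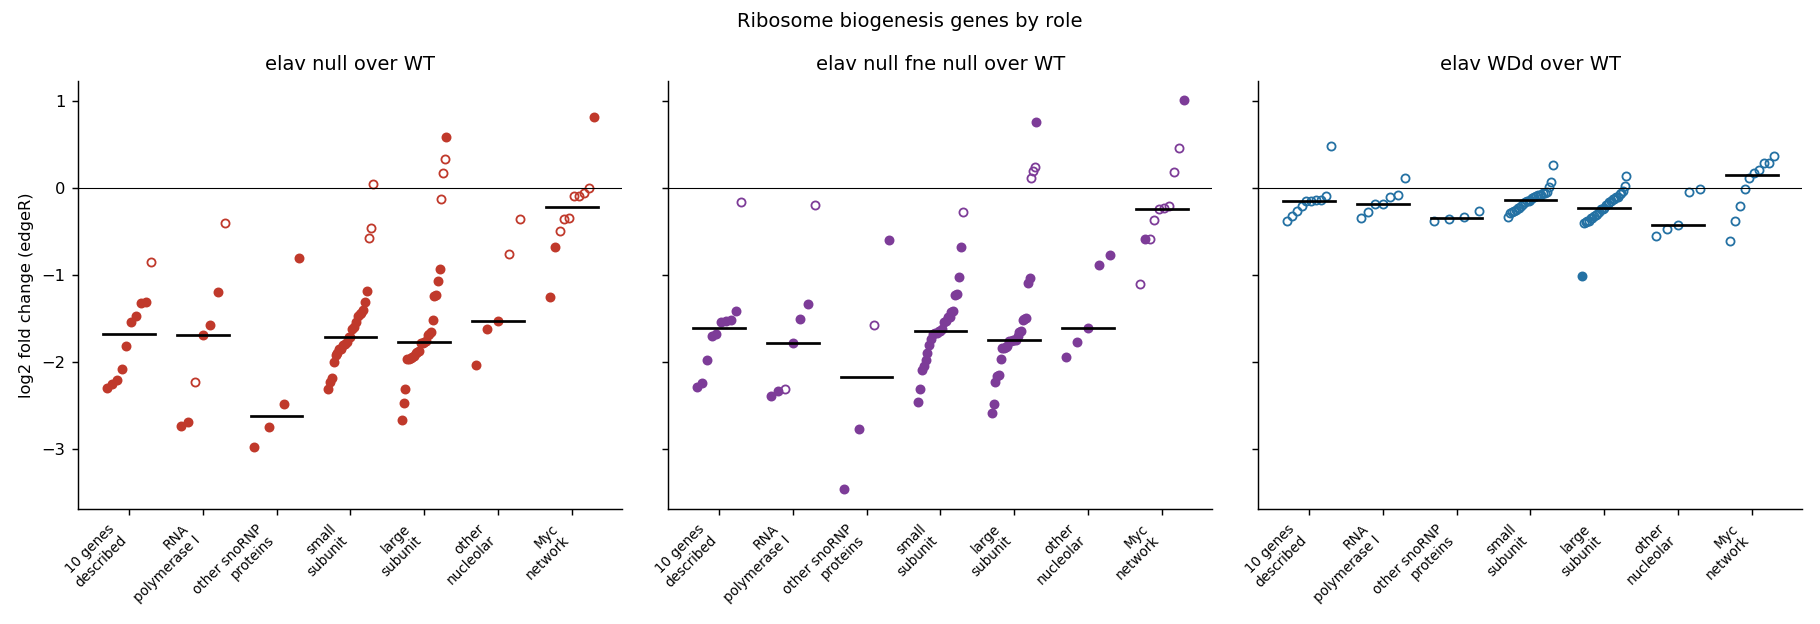
Log2 fold change from edgeR of the 10 genes and the 78 others by role, in panels for elav null over WT, elav null fne null over WT, and elav WDd over WT. Each point is 1 gene, filled where the adjusted p is under 0.05, and bars are medians; the medians of the biogenesis roles lie between -2.61 and -1.52 in the null groups, those of the Myc network at -0.21 and -0.23.

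Outside both lists, the genes whose levels over the 12 libraries were most like the mean of the 10 were mthl9 (Pearson r = 0.996), ZnT63C (r = 0.994), CG5645 (r = 0.992), CG31198 (r = 0.992) and emp (r = 0.991). mthl9 averaged 20.7 CPM in elav null, 20.8 CPM in elav null fne null, 52.2 CPM in elav WDd and 57.0 CPM in WT embryos. Since the libraries fall into a low and a high set, r mainly records that gap: 201 of the 8337 genes compared had r of at least 0.95, and the median was 0.262.

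Among other tissues' markers, the muscle sums, the midgut sums and the eggshell and yolk sums set both null groups apart from elav WDd and WT embryos. Sums of neuroblast, neuron, cell cycle, germline and salivary gland markers did not. Summed over 8 genes each, muscle markers were at 2142 to 15460.5 CPM in elav null and 2083 to 4246 CPM in elav null fne null, against 41055 to 43940.1 CPM in elav WDd and 36592 to 42537 CPM in WT embryos, with 7 and 8 of 8 lower in the null groups over WT. Midgut markers were at 6397 to 7400.0 CPM in elav null and 6289.5 to 7476 CPM in elav null fne null, against 2528 to 3217 CPM in elav WDd and 2857 to 3379 CPM in WT embryos, with 5 and 6 of 8 higher. Neuroblast markers, 6 genes of dividing neural stem cells, were at 61.1, 69.3 and 176 CPM in elav null and 159.5 to 178 CPM in elav null fne null, against 50.2 to 68.5 CPM in elav WDd and 48.0 to 69.0 CPM in WT embryos, with 2 and 4 of 6 higher in the null groups over WT. Of the elav null libraries, the library labelled replicate 3 was inside the elav null fne null range for neuroblast markers (176 CPM), muscle markers (2142 CPM) and neuron markers (1061 CPM), and the other 2 were not. The 12 cell cycle genes did not follow the members: 118 to 175 CPM in elav null and 116 to 121 CPM in elav null fne null, against 171 to 571 CPM in elav WDd and 93.3 to 452 CPM in WT embryos. Of the 12, 0 and 1 were lower in the null groups over WT. The 8 neuron markers were at 1625, 1905 and 1061 CPM in elav null and 964 to 1158 CPM in elav null fne null, against 1519.8 to 2014 CPM in elav WDd and 1171 to 2438 CPM in WT embryos, with 0 and 4 of 8 lower over WT. Summed germline markers and salivary gland markers overlapped between all groups, and 2 of 6 germline and 1 of 5 salivary gland genes were called higher in each null group over WT. Beside these marker calls, 5.99% of all tested genes were higher and 11.7% lower in elav null over WT. In elav null fne null over WT, 6.68% were higher and 14.7% lower. Summed eggshell and yolk genes, products of adult females, were at 91.2, 694 and 20.3 CPM in elav null and 6.96 to 10.8 CPM in elav null fne null. They were at 2.12 to 3.4 CPM in elav WDd and 2.76 to 5.36 CPM in WT embryos. Of the 16 tested, 8 were called higher in elav null and 0 in elav null fne null over WT. The part of these markers, of depth and of mitochondrial RNA in the members' levels was not tested. A fit that dropped the 3 libraries of lowest gene detection, a choice made after seeing the data, kept 2 elav null fne null libraries, and in them the 9 genes were lower over WT, from -2.25 for nop5 to -1.44 for Fib. It kept 1 elav null library, replicate 2, which is the one with 694 CPM of eggshell and yolk genes and 9.54% of mitochondrial ribosomal RNA and is assumed to vary like the other groups; its changes over WT ran from -2.40 for pit to -1.49 for Fib.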

How the data were processed

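Poly(A) RNA of 12 libraries, 3 per group, was sequenced as paired-end 150 bp reads, per the labels. The authors deposited whole-number counts per gene, not normalized; Trim Galore 0.6.7, STAR 2.7.11a, featureCounts 2.0.8, DESeq2 1.40.2 and dm6 are named in the submitters' processing notes without role or order, and the strand and multi-mapping settings are not given in the sources used here. Groups were taken from the labels. The 10 genes, the wider list of 78, the marker lists and the tests were chosen with earlier results of these data known. edgeR 4.0.16 in R 4.3.3 was fitted once to all 12 libraries (TMM factors, filterByExpr, quasi-likelihood F test, two-sided, Benjamini-Hochberg adjustment over 14031 genes, threshold 0.05); standard errors are the log2 fold change divided by the square root of F, and intervals use its degrees of freedom. All 6 pairs of groups were compared. TPM used exonic lengths of the BDGP6 Ensembl annotation and no TMM factors. Named in the text were all 10 genes; of the wider list, up to 4 called genes of largest change in each direction per comparison with WT, plus hoip, NHP2, Nop10, Gar1, Tif-IA, Max, Mnt and ago; and the 5 genes most like the 10 with a mean of at least 5 CPM. Polr1D, Mondo and the uncalled genes were named after their values were seen. Alternatives were RLE factors, DESeq2 1.42.0, no filter, the 6 libraries compared alone, a replicate block, leaving out each library, and, added later, leaving out 3 libraries and, for correlations, TPM plus 1 on the log2 scale. The fit was tested on simulated data. No pair of libraries held identical counts. The edgeR intervals include the spread between these libraries, and the floors cover counting error only.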

Additional observations from a re-analysis of the deposited data

How the results depend on the processing

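Over 18 alternative settings the 9 genes other than Myc kept their lower calls in both null groups over WT, and none of the 10 was called in elav WDd over WT; in 1 setting, without the 3 libraries of fewest genes, elav null is 1 library (replicate 2), its spread taken from the other groups. Myc moved: it was called lower in elav null over WT with elav null replicate 3 left out (-1.32) and with a replicate block (-0.91), was no longer called in elav null over elav WDd with those 6 libraries alone (-1.31), and was called lower in elav null fne null over elav WDd with those 6 libraries alone (-0.61) and without the 3 libraries of fewest genes (-0.71). The cause was not tested. RLE factors shifted the median of all genes to 0.104 in elav null fne null over WT, and the share of calls that were higher was 42.4% there, against 31.3% with TMM factors; in elav null over WT it was 42.1% against 33.9%. Over elav WDd it was 43.9% against 34.7% for elav null and 43.7% against 31.6% for elav null fne null. With DESeq2 the share over WT was 43.5% for elav null and 45.3% for elav null fne null. Over all genes, DESeq2 against edgeR called 1424 against 841 higher for elav null and 1682 against 937 for elav null fne null over WT, and 1543 against 818 and 1861 against 926 over elav WDd; in elav WDd over WT it called 58 higher and 100 lower against 9 and 19. The 6 libraries alone gave 450 higher and 823 lower in elav null over WT, against 841 and 1638, and 1784 higher in elav null fne null over elav WDd, against 926. Over elav null, the 6 higher and 26 lower genes of elav null fne null became 0 and 0 with those 6 libraries, 0 and 2 with a replicate block, 1 and 6 with RLE factors, 7 and 40 with no filter, and 86 and 349 without the 3 libraries. In elav WDd over WT the block gave 5 and 11, and dropping the 3 libraries 24 and 63. With 1 library left out, lower counts ran from 1131 to 1750 in elav null over WT and 1436 to 2519 in elav null fne null over WT; in elav null fne null over elav null, 0 to 321 were higher and 0 to 726 lower, and in elav WDd over WT 0 to 24 and 3 to 54. Depth limits the library labelled elav null replicate 3 most, where 3 counts make 0.14 CPM.

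In elav null over WT the wider list's 2 higher calls became 0 with those 6 libraries alone, 1 with a replicate block, 0 without the 3 libraries of fewest genes, and 0 to 2 over the fits that left out 1 library each. In elav null over elav WDd the 1 higher call became 2 with DESeq2, 0 without the 3 libraries, and 0 to 2 with 1 library left out. In elav null fne null over elav null DESeq2 called 1 of the list higher, and the members' count of higher calls ran from 0 to 1 with 1 library left out. The other spans with 1 library left out were 1 to 2 higher in elav null fne null over WT, 1 to 2 higher in elav null fne null over elav WDd, and 0 to 1 lower in elav WDd over WT.

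Uncalled changes near 0 changed sign: without the 3 libraries, elav null fne null over elav null sets 2 libraries against 1 and gave 0.06 for Fib, 0.06 for Nop56, 0.18 for Ns1, 0.14 for mod and -0.04 for bys. With 1 library left out, that comparison ran from -0.16 to 0.01 for Fib, -0.27 to 0.12 for nop5, -0.06 to 0.27 for Nop60B, -0.20 to 0.11 for mod and -0.17 to 0.30 for bys. In elav WDd over WT the spans were -0.23 to 0.01 for nop5, -0.22 to 0.02 for Nop60B and -0.28 to 0.03 for Ns1, and in elav null fne null over WT -0.34 to 0.00 for Myc.

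The labels do not say that a replicate number marks a shared batch, and deviations of same-numbered libraries correlated at r from -0.24 to 0.242, so the numbers were not taken to pair the libraries. With a replicate block as a term, the counts of members called lower over WT were 10 in elav null, 9 in elav null fne null and 0 in elav WDd.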
